A study of Mus musculus with 8 samples.

Results

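The genes of MHC class I antigen presentation were followed in tumours of B16F10 cells, a mouse melanoma line, grown subcutaneously in C57BL/6J mice. The 10 genes were chosen by name: H2-K1, H2-D1, H2-T23, B2m, Tap1, Tap2, Tapbp, Psmb8, Psmb9 and Nlrc5. All 10 were found among the 34745 genes listed, and all 10 passed the filter on low counts. RNA-seq of 8 tumour samples compared mice on a high cholesterol diet (HCD 1 to HCD 4) with mice on a normal diet (ND 1 to ND 4). The tumour cells, their culture before injection, the site of injection and the mouse strain were the same in both groups. The age and sex of the mice, the length of the diet and the day of harvest are not stated in the labels used. The labels number the tumours but do not say that each came from its own mouse. The p-values therefore measure no more than how these samples vary, and part of that variation may be technical. Each sample was bulk tumour tissue and holds the RNA of host cells beside that of the melanoma cells.

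Class I molecules display peptides from inside the cell to CD8 T cells. A heavy chain pairs with beta-2-microglobulin, the proteasome cuts proteins to peptides, the TAP transporter carries the peptides into the endoplasmic reticulum, and tapasin helps to load them. Interferon gamma raises most of these genes together, and B16 melanoma cells are known for showing little class I at their surface until they meet it.

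In these tumours 1 library, ND 2, stood apart for the class I genes and on the first principal component of all tested genes. That component held 28.3% of the variance, with ND 2 at 53.2 and the other 7 libraries between -18.8 and 4.93. The class I genes were part of it. All 10 were lowest in ND 2, each more than 2-fold below the next lowest library. None passed the test between HCD and ND tumours. Total counts ran from 14599222 to 17722093 per library, and ND 2 was not shallow for these genes, with 95 counts for its scarcest member, Nlrc5. The melanocyte marker list summed to 35615.5, 32694.6, 35789.5 and 37312.4 CPM (counts scaled to the library size) in HCD 1 to HCD 4 and to 36104.1, 34620.4, 36246.3 and 36251.6 CPM in ND 1 to ND 4, so the labelled cell type was plain in all 8. ND 2, ND 3 and ND 4 detected 18088 to 18224 genes, against 16285 to 16745 genes in the other 5 libraries. CPM values here are TMM-normalized, and only values per length are compared between genes.

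The heavy chains H2-K1 and H2-D1 form the classical class I molecules of this strain. H2-K1 (ENSMUSG00000061232, chr17:33996017-34000347, minus strand, GRCm38) had 372.8, 352.8, 463.7 and 342.7 CPM in HCD 1 to HCD 4, against 401.6, 164.1, 334.6 and 384.3 CPM in ND 1 to ND 4. HCD 3 was highest and ND 2 lowest, and the groups overlapped. H2-D1 (ENSMUSG00000073411, chr17:35262730-35267499, plus strand) had 1065.0, 1051.4, 1159.7 and 1099.2 CPM in HCD 1 to HCD 4, against 1189.6, 381.7, 1033.1 and 1166.9 CPM in ND 1 to ND 4. The 7 libraries other than ND 2 lay close together, ND 1 at the top. H2-T23 (ENSMUSG00000067212, chr17:36029773-36032855, minus strand), which encodes the non-classical chain Qa-1 that is read by inhibitory receptors of NK and T cells, had 90.9, 97.8, 97.9 and 64.4 CPM in HCD 1 to HCD 4, against 125.6, 31.5, 96.6 and 92.8 CPM in ND 1 to ND 4. After ND 2, HCD 4 held the lowest H2-T23 level.

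B2m (ENSMUSG00000060802, chr2:122147686-122153083, plus strand), the light chain that every class I molecule needs at the surface, had 1608.0, 1379.0, 1643.3 and 1527.5 CPM in HCD 1 to HCD 4. In ND 1 to ND 4 it had 1499.6, 596.8, 1597.4 and 1583.5 CPM. Its coefficient of variation was 7.63% among the HCD tumours and 36.7% among the 4 ND tumours. Without ND 2 it was 3.39% among the ND tumours, the smallest of the 10 genes.

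In bulk tumours, fewer cells of a type and less RNA per cell cannot be told apart. HCD tumours averaged 383.0 ± 55.3 CPM of H2-K1 and ND tumours 321.1 ± 108.5 CPM (SD, n = 4 each). By edgeR's quasi-likelihood test with Benjamini-Hochberg adjustment over all genes, the log2 fold change of H2-K1 was 0.25 (SE 0.234, adjusted p = 0.679). The values for H2-D1 were 1093.8 ± 48.3 CPM in HCD tumours and 942.8 ± 380.4 CPM in ND tumours, with a log2 fold change of 0.21. For H2-T23 they were 87.8 ± 15.9 CPM in HCD tumours and 86.6 ± 39.6 CPM in ND tumours, with a log2 fold change of 0.02. B2m averaged 1539.5 ± 117.5 CPM in HCD tumours and 1319.3 ± 483.6 CPM in ND tumours, with a log2 fold change of 0.22. Each difference was smaller than the SD of the ND tumours. The SD among the ND tumours was larger than among the HCD tumours for every one of these chains.

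For each of these chains, a stretch upstream of the start of its gene is shown as RefSeq gives it (GRCm38.p6). The RefSeq starts of H2-D1 and H2-T23 (bases 35263094 and 36032701 of chromosome 17) lie inside the gene bounds given above, which are from GENCODE, and so do their stretches. Capitals mark letters known from class I promoters, searched on both strands: GGGATTCCC, of the kappa B kind; GAANNGAAA, or GAAA and GAAA with any 2 bases between them, of the interferon response kind; and TGACG followed after 20 bases by ATTGG, the order of the X2 and Y boxes. The interferon letters stand on the opposite strand in H2-K1, H2-D1 and H2-T23.
H2-K1, chr17:34000349-34000467, minus strand: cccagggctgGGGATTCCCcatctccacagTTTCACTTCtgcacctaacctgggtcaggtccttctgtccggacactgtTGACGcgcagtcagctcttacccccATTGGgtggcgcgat
H2-D1, chr17:35262914-35263032, plus strand: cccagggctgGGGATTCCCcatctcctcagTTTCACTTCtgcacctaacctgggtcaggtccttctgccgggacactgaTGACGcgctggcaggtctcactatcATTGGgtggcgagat
H2-T23, chr17:36032806-36032835, minus strand: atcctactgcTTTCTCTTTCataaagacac
B2m, chr2:122147538-122147648, plus strand: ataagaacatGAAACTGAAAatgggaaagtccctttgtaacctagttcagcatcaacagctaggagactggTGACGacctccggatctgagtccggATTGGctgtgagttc

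H2-K1 and H2-D1 carry the 3 elements in the same order and nearly the same letters. B2m holds the longer interferon letters and the X2 and Y pair, without the kappa B letters. Of 32851 mouse promoters of the same 300 bases, 0.353% hold GGGATTCCC, 7.52% hold GAANNGAAA and 3.44% hold the GAAA pair. The X2 and Y pair stands in 0.0944% of them. None of these letters occur in the 300 bases of Tap1, Tapbp, Psmb8 or Psmb9, and Tap2 and Nlrc5 had no entry. The search letters were chosen after the promoters had been read, and a match describes the sequence only.

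**Figure D1:**
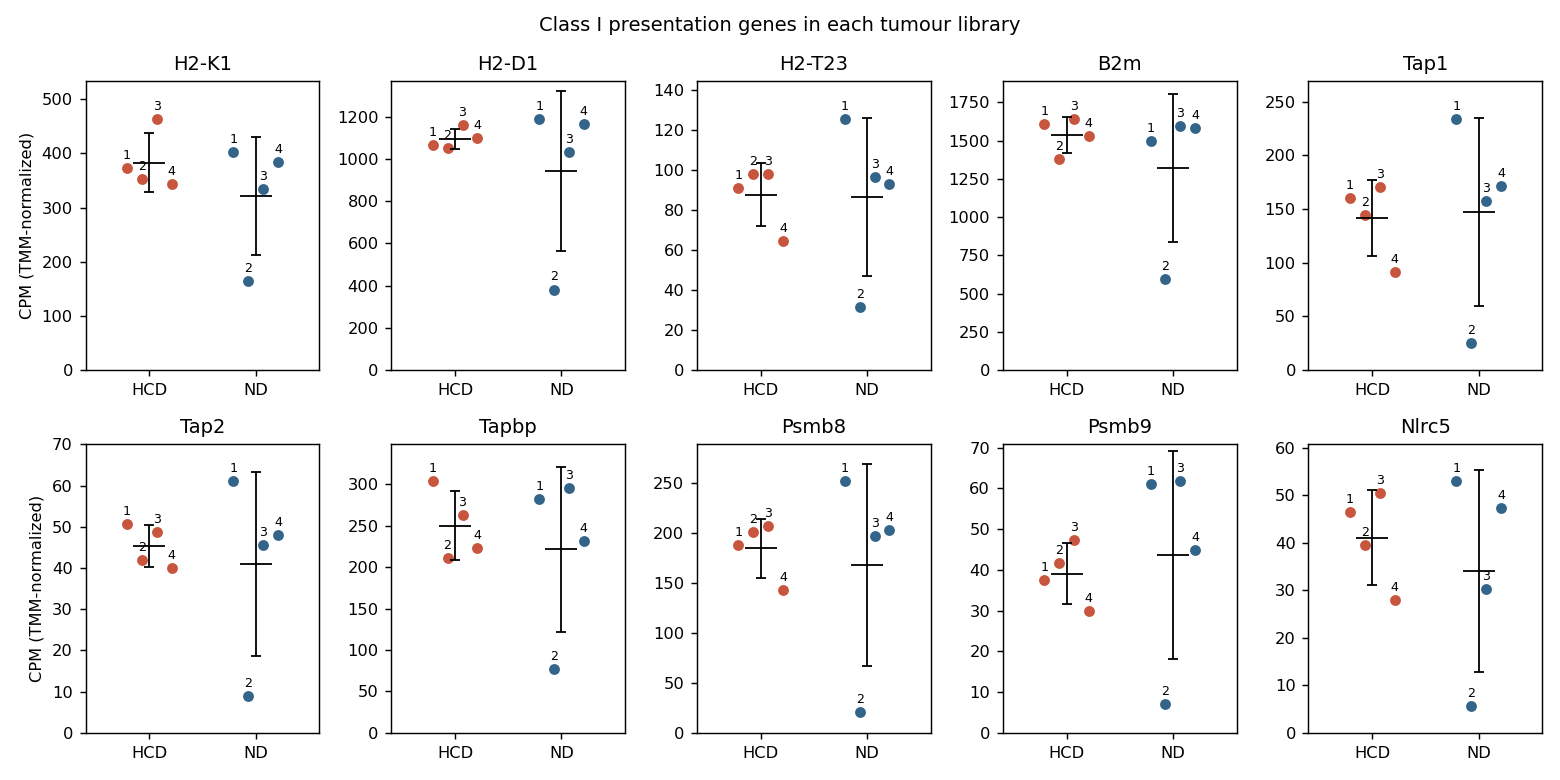
Level of each class I gene (y axis, TMM-normalized CPM from 0) in the HCD tumours (left) and ND tumours (right), with the replicate number at each point, the mean and bars of 1 SD (n = 4 each). In all 10 panels the lowest point is ND 2, and the other 7 libraries overlap.

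Tap1 and Tap2 stood further below the other libraries in ND 2 than the heavy chains did. Tap1 (ENSMUSG00000037321, chr17:34187553-34197225, plus strand), one chain of the peptide transporter, had 160.3, 144.5, 170.2 and 91.3 CPM in HCD 1 to HCD 4, against 234.0, 25.6, 157.6 and 171.1 CPM in ND 1 to ND 4. ND 1 was highest, ND 2 was 3.56-fold below the next lowest library, and HCD 4 was that next lowest one. Tap2 (ENSMUSG00000024339, chr17:34203527-34216321, plus strand), the other chain, had 50.6, 42.0, 48.7 and 40.1 CPM in HCD 1 to HCD 4, against 61.0, 8.98, 45.5 and 48.0 CPM in ND 1 to ND 4. ND 1 again led, and ND 2 was 4.46-fold below HCD 4. Tapbp (ENSMUSG00000024308, chr17:33915899-33929292, plus strand), the loading factor tapasin, had 303.3, 210.8, 262.7 and 223.2 CPM in HCD 1 to HCD 4, against 281.8, 77.4, 295.4 and 230.9 CPM in ND 1 to ND 4. Its highest library was HCD 1, and HCD 2 stood just above ND 2 at 2.72-fold its level.

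By diet, Tap1 averaged 141.6 ± 35.1 CPM in HCD tumours and 147.1 ± 87.6 CPM in ND tumours, with a log2 fold change of -0.06 (SE 0.487; edgeR's quasi-likelihood test, adjusted p = 0.978). Tap2 averaged 45.3 ± 5.09 CPM in HCD tumours and 40.9 ± 22.3 CPM in ND tumours, with a log2 fold change of 0.15. Tapbp ranged from 210.8 to 303.3 CPM in HCD tumours and from 77.4 to 295.4 CPM in ND tumours, with a log2 fold change of 0.18. All 3 differences were within the spread of the ND tumours. Reads of these genes may be partly shared: other annotated genes overlap 18.5% of the exon bases of Tap2 and 29.0% of those of Tapbp, and whether reads were counted by strand is not stated.

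Psmb8 and Psmb9 encode catalytic subunits that take the place of constitutive ones in the immunoproteasome. Psmb8 (ENSMUSG00000024338, chr17:34197721-34201454, plus strand) had 187.4, 200.7, 207.0 and 142.5 CPM in HCD 1 to HCD 4, against 251.3, 20.9, 196.6 and 202.6 CPM in ND 1 to ND 4. Of the 10 genes it stood furthest down in ND 2, 6.81-fold below HCD 4 and 9.6-fold below the median of the other 7 libraries. Psmb9 (ENSMUSG00000096727, chr17:34181987-34187764, minus strand) had 37.4, 41.8, 47.4 and 29.8 CPM in HCD 1 to HCD 4, against 61.0, 7.17, 61.7 and 44.8 CPM in ND 1 to ND 4. Apart from ND 2, 2 of the 3 ND tumours stood above every HCD tumour. Psmb9 and Tap1 start 225 bases apart on opposite strands, so their promoter windows share 275 bases. In the annotation their exons overlap by 212 bases. Another annotated gene, Gm20496, overlaps 14.7% of the exon bases of Psmb8, so reads of Psmb8 may be partly shared too.

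Psmb8 averaged 184.4 ± 29.1 CPM in HCD tumours and 167.9 ± 101.0 CPM in ND tumours, with a log2 fold change of 0.14 (SE 0.525; edgeR's quasi-likelihood test, adjusted p = 0.941). Psmb9 averaged 39.1 ± 7.4 CPM in HCD tumours and 43.7 ± 25.6 CPM in ND tumours, with a log2 fold change of -0.16 (SE 0.478; edgeR's quasi-likelihood test, adjusted p = 0.917). Neither difference exceeded the spread.

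Nlrc5 (ENSMUSG00000074151, chr8:94434356-94527272, plus strand), a transactivator that works at the promoters of class I genes, had 46.5, 39.5, 50.5 and 27.9 CPM in HCD 1 to HCD 4, against 52.9, 5.73, 30.3 and 47.4 CPM in ND 1 to ND 4. ND 2 lay 4.87-fold below HCD 4 and 8.12-fold below the median of the other 7. Nlrc5 averaged 41.1 ± 9.9 CPM in HCD tumours and 34.1 ± 21.2 CPM in ND tumours, with a log2 fold change of 0.27 (SE 0.49; edgeR's quasi-likelihood test, adjusted p = 0.852). Its groups overlapped, and its spread among ND tumours was the widest of the 10 genes at a coefficient of variation of 62.3%.

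Over the 10 genes, 0 were called between HCD and ND tumours by edgeR's quasi-likelihood test at an adjusted p of 0.05, where 0.182% of the 13186 genes tested were called. At an unadjusted p under 0.05 the count was again 0, against 14.7% of all genes tested. DESeq2, which called 437 of the 13186 genes, and limma-voom, which called 19, also called 0 of the 10. In 0 of the 10 did the HCD and ND libraries separate without overlap, against 9.67% of all genes. The log2 fold change was positive in 8 and negative in 2, with a median of 0.16, beside 0.0049 over all genes tested.

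Among single libraries, ND 2 was the lowest of the 8 libraries for all 10 class I genes and for 16.7% of all genes tested. It was more than 2-fold below the next lowest library for all 10 and for 3.02% of all genes. Against the median of the other 7 libraries, ND 2 was 2.27-fold lower for H2-K1, 2.65-fold for B2m, 2.88-fold for H2-D1 and 3.07-fold for H2-T23. It was 3.39-fold lower for Tapbp, 5.35-fold for Tap2, 6.24-fold for Psmb9 and 6.26-fold for Tap1. Nlrc5 and Psmb8 stood lowest. The chains that reach the surface were nearest to the other libraries. Among the other 7, HCD 4 was the lowest for 6 of the 10 genes, against 15% of all genes tested. ND 1 was the highest of all 8 libraries for 6 of the 10, against 14.3% of all genes.

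Without ND 2, 0 of the 10 genes were called by edgeR's quasi-likelihood test, where 0.0898% of 13367 genes were, and 1 had an unadjusted p under 0.05, against 13.9% of those genes. The sign turned: 9 of the 10 log2 fold changes were negative, with a median of -0.15, beside 0.0048 over all genes tested. H2-K1, at 0.04, was the exception. The gene with the unadjusted p under 0.05 was Psmb9, at a log2 fold change of -0.51 (edgeR's quasi-likelihood test, adjusted p = 0.208). Over the 15 alternatives, the adjusted p of the 10 genes ran from 0.208 to 1.0. SEs over the 10 genes were 0.234 to 0.525 with all 8 libraries and 0.0723 to 0.221 without ND 2.

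**Figure D2:**
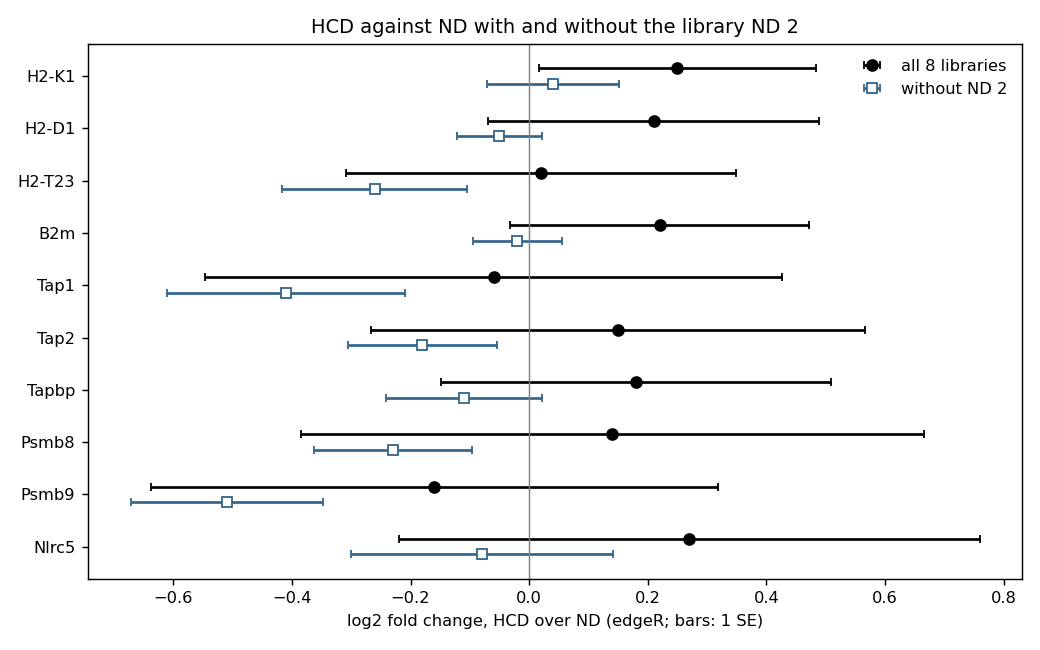
Log2 fold change of HCD over ND for each class I gene (x axis) from edgeR with all 8 libraries (filled circles) and without ND 2 (open squares); bars are 1 SE. Of the 10 estimates, 8 lie above 0 with all libraries and 1, H2-K1, lies above 0 without ND 2.

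Ratios within a library do not depend on how libraries are scaled. For the catalytic pairs, the interferon-inducible subunit was divided by the constitutive subunit whose place it takes, in FPKM, and the level of each ratio depends on the authors' gene lengths. Psmb8 over Psmb5 was 0.572, 0.564, 0.467 and 0.449 in HCD 1 to HCD 4, against 0.615, 0.0665, 0.557 and 0.53 in ND 1 to ND 4. ND 2 stood 8.37-fold below the median of the other 7, while its Psmb5 itself, at 71.2 CPM, was close to the 71.9 CPM of HCD 4. Psmb9 over Psmb6 was 0.105, 0.107, 0.11 and 0.0906 in HCD 1 to HCD 4, against 0.126, 0.0189, 0.166 and 0.108 in ND 1 to ND 4. Psmb10 over Psmb7, the last pair, was 2.57, 2.07, 2.65 and 1.84 in HCD 1 to HCD 4, against 3.25, 0.917, 2.35 and 2.29 in ND 1 to ND 4. ND 2 was lowest for all 3 pairs.

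The ratio of B2m to the sum of H2-K1 and H2-D1 did not follow that pattern. It was 4.75, 4.14, 4.37 and 4.43 in HCD 1 to HCD 4, against 3.98, 4.77, 4.91 and 4.3 in ND 1 to ND 4, so ND 2 lay inside the range of the other libraries. Tap1 over Tap2 was 1.45, 1.57, 1.6 and 1.04 in HCD 1 to HCD 4, against 1.75, 1.3, 1.58 and 1.63 in ND 1 to ND 4, with HCD 4 lowest and ND 2 next. By two-sided exact permutation tests of the mean log2 ratio, HCD minus ND, p was 0.857 for Psmb8 over Psmb5, 0.971 for Psmb9 over Psmb6 and 0.829 for Psmb10 over Psmb7. It was 0.829 for the B2m ratio and 0.429 for Tap1 over Tap2, and all 5 had an adjusted p of 0.971. The smallest p that 4 against 4 can give is 0.0286. The means of Psmb9 over Psmb6 were 0.103 ± 0.00876 in HCD tumours and 0.105 ± 0.0621 in ND tumours (SD, n = 4 each), although its mean log2 difference was 0.35. Without ND 2 that log2 difference was -0.35, with an exact permutation p of 0.0571 and an adjusted p of 0.285.

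**Figure D3:**
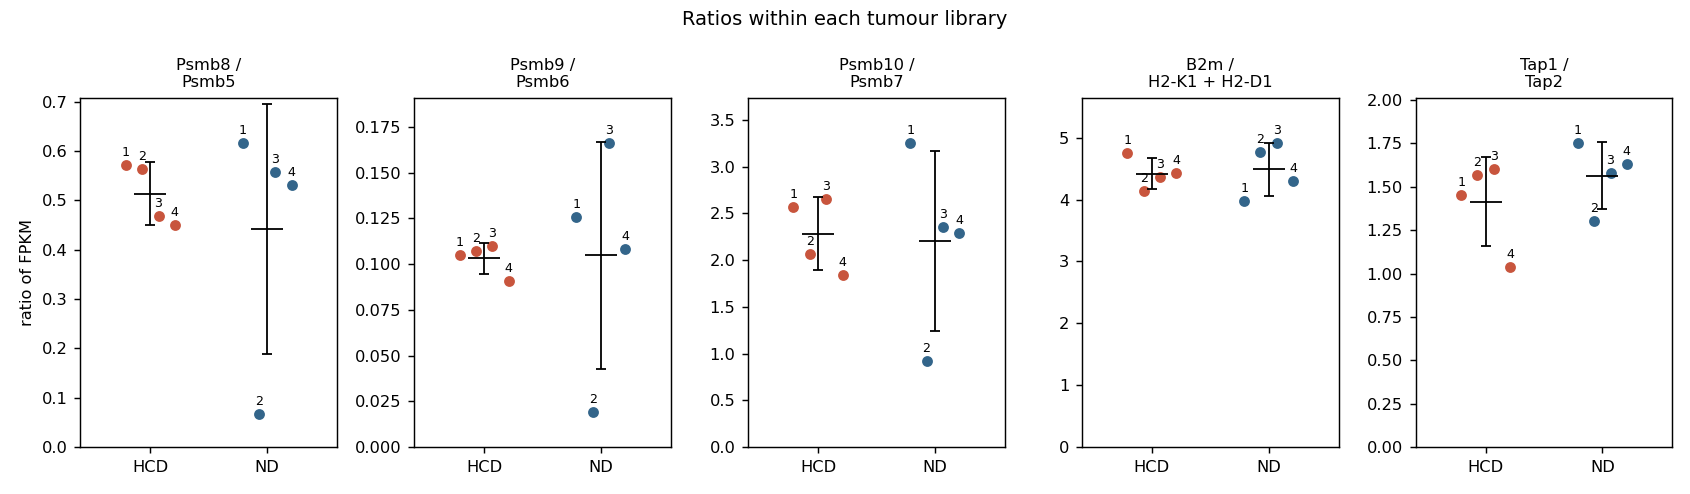
Ratios of FPKM within each tumour library (y axis from 0), HCD left and ND right, with replicate numbers, means and bars of 1 SD (n = 4 each). ND 2 is far below the rest in the 3 proteasome panels and within the range of the others for B2m over H2-K1 plus H2-D1.

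Of the related genes, some were low in ND 2 and others were not. The other class I heavy chains, 9 of 19 matched genes tested, included 7 that were lowest in ND 2, each more than 2-fold below the next lowest library. H2-T22 had 219.2, 232.0, 266.0 and 184.4 CPM in HCD 1 to HCD 4, against 277.6, 86.1, 250.7 and 234.7 CPM in ND 1 to ND 4. Mr1, which presents microbial metabolites, had 29.3 CPM in ND 2 and 28.4 to 32.9 CPM elsewhere. Heavy chain genes resemble each other, and 9.63% of the 50-base words of H2-K1, 12.8% of those of H2-D1 and 14.5% of those of H2-T23 also occur in transcripts of other genes, so their split is uncertain.

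Of 9 chaperones and peptide-trimming enzymes, 3 were lowest in ND 2. Calr, Canx and Pdia3, general chaperones of the endoplasmic reticulum that also serve class I loading, had 2481.2, 408.1 and 866.0 CPM in ND 2, within the range of the other libraries. Erap1, which trims peptides in that compartment, had 29.4 CPM in ND 2 and 75.4 to 102.1 CPM in the others. Among 5 further immunoproteasome and activator subunits, Psmb10 had 40.6 CPM in ND 2 and 86.0 to 150.6 CPM elsewhere. Of the 3 constitutive catalytic subunits, 0 were more than 2-fold below the next lowest library in ND 2.

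Regulators of class I transcription differed among themselves in the same way. Irf1 had 61.6, 43.4, 59.5 and 39.4 CPM in HCD 1 to HCD 4, against 77.6, 11.5, 59.8 and 57.8 CPM in ND 1 to ND 4. Rfx5, a subunit of the factor that binds the X box, averaged 15.9 ± 1.28 CPM in HCD tumours and 14.1 ± 1.17 CPM in ND tumours (SD, n = 4 each), with ND 2 lowest by less than that SD. Of 16 such regulators, 6 were lowest in ND 2 and 4 were more than 2-fold below the next lowest library. Of 14 tested genes of the interferon gamma signal and its other targets, 10 were lowest in ND 2 and 9 were more than 2-fold below the next lowest library. Ifng itself had 1, 2, 6 and 3 counts in HCD 1 to HCD 4, against 9, 0, 3 and 3 counts in ND 1 to ND 4, too few to be tested.

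By diet, these 6 lists held 0 genes called by edgeR's quasi-likelihood test, DESeq2 or limma-voom. By the first test there were 0 at an unadjusted p under 0.05 among the heavy chains, the activator subunits and the constitutive subunits, 1 of 9 among the chaperones and enzymes, 4 of 16 among the regulators and 1 of 14 among the interferon genes, beside 14.7% of all genes tested. Median log2 fold changes were 0.18 for the other heavy chains, 0.05 for the chaperones and enzymes and 0.07 for the activator subunits. They were -0.01 for the constitutive subunits, 0.14 for the regulators and -0.02 for the interferon genes. Without ND 2 the medians were -0.02 for the other heavy chains, 0.02 for the chaperones and enzymes and 0.01 for the activator subunits. The constitutive subunits were then at -0.08, the regulators at 0.06 and the interferon genes at -0.24. Of the 14 interferon genes tested, 11 were then lower in HCD tumours, against 8 with all libraries. Without ND 2, edgeR's test called 0 genes of these lists. The lists were chosen with earlier results of these data known.

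Leukocyte markers were low in ND 2 as well. The 7 leukocyte markers summed to 171.4, 182.5, 228.0 and 195.3 CPM in HCD 1 to HCD 4, against 229.4, 70.9, 152.2 and 189.2 CPM in ND 1 to ND 4, and all 7 were lowest in ND 2. The T and NK cell markers, 13 genes with 8 tested, summed to 28.1, 31.6, 29.2 and 20.8 CPM in HCD 1 to HCD 4, against 36.8, 9.82, 37.7 and 24.7 CPM in ND 1 to ND 4. Cd3e, a chain of the T cell receptor complex, had 1 count in ND 2 and 3 to 17 counts elsewhere, and Cd8a had 0.422 CPM in ND 2 and 1.18 to 2.29 CPM elsewhere. Of all 13, 9 were lowest in ND 2, and Cd3d, Cd4, Cd8b1 and Ncr1 were not. Cd4 had 22, 21, 11 and 7 counts in HCD 1 to HCD 4. In ND 1 to ND 4 it had 1, 2, 4 and 3 counts, and it did not pass the filter with all 8 libraries. Without ND 2 its log2 fold change was 2.38 (edgeR's quasi-likelihood test, adjusted p = 0.168). Cd8b1, the partner of Cd8a, had 0.844 CPM in ND 2, inside the 0.555 to 1.66 CPM of the other libraries. The 10 macrophage markers summed to 504.3, 504.8, 658.1 and 526.9 CPM in HCD 1 to HCD 4, against 556.5, 322.5, 365.2 and 431.2 CPM in ND 1 to ND 4. Of these, 8 were lowest in ND 2, while Mrc1 was lowest in ND 3. Cd68 was highest in ND 2, at 169.1 CPM against 127.6 to 158.7 CPM elsewhere, and makes up much of the ND 2 sum. The 8 skeletal muscle markers went the other way, summing to 5.52, 4.24, 7.56 and 4.88 CPM in HCD 1 to HCD 4, against 39.6, 63.3, 14.1 and 4.72 CPM in ND 1 to ND 4. The part of these other cells in the low class I values of ND 2 was not tested.

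By edgeR's quasi-likelihood test and by limma-voom, 0 leukocyte, T and NK cell, macrophage, dendritic cell, endothelial, fibroblast or muscle markers were called. DESeq2, which called 437 of all 13186 genes tested, called 1 macrophage marker (Mrc1) and 2 muscle markers (Acta1 and Actn3). The adjusted p by edgeR's quasi-likelihood test was 0.0506 for Mrc1, 0.106 for Acta1 and 0.156 for Actn3. At an unadjusted p under 0.05 in edgeR's test there were 1 of 7 leukocyte, 0 of 8 T and NK cell, 4 of 10 macrophage and 0 of 4 dendritic cell markers tested. There were also 3 of 6 endothelial, 0 of 6 fibroblast and 6 of 6 muscle markers, beside 14.7% of all genes tested. Median log2 fold changes were 0.44 for leukocyte, 0.13 for T and NK cell, 0.50 for macrophage and 0.33 for dendritic cell markers. They were 0.28 for endothelial, 0.68 for fibroblast and -2.40 for muscle markers. The 7 fibroblast markers summed to 253.7, 286.0, 266.5 and 74.2 CPM in HCD 1 to HCD 4. In ND 1 to ND 4 they summed to 270.4, 149.5, 70.3 and 56.1 CPM, so the groups overlapped and HCD 4 was among the low libraries. Without ND 2 the medians were 0.13 for leukocyte, -0.04 for T and NK cell, 0.30 for macrophage and 0.21 for dendritic cell markers. They were then 0.25 for endothelial, 0.81 for fibroblast and -1.36 for muscle markers. That fit tested 9 T and NK cell and 7 fibroblast markers, so the medians of these lists cover unlike sets. None of the 4 B cell markers passed the filter, and among the immune markers Klrb1c, Xcr1 and Clec9a were at 0 in ND 2. Of the 10 melanocyte markers, with a median of 0.03, Mitf, the lineage's master transcription factor, was called: it averaged 452.6 ± 51.3 CPM in HCD tumours and 250.5 ± 34.3 CPM in ND tumours (log2 fold change 0.85, edgeR adjusted p = 0.0459). Its log2 fold change was 0.77 to 0.93 over 15 alternatives, of which 6 passed the threshold. A term for ND 2, ND 3 and ND 4, which sets HCD against ND 1 alone, gave 0.79. Apart from that term, the adjusted p ran from 2.02e-09 with DESeq2 to 0.138 by edgeR without HCD 4. Without 1 library each, it passed only without ND 2 (edgeR adjusted p = 0.0311), and the replicate block gave an adjusted p of 0.106.

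**Figure D4:**
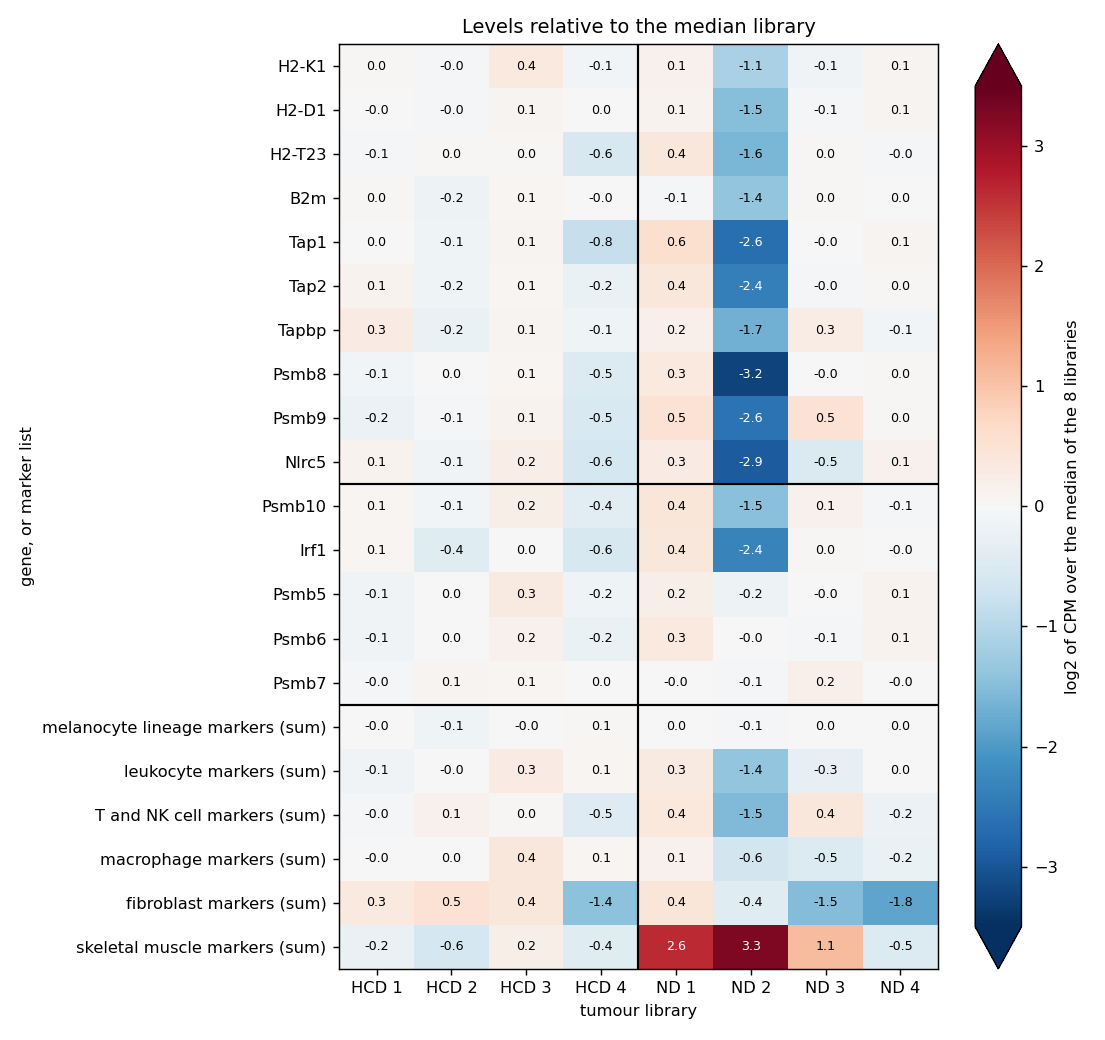
Log2 of the level in each library (columns, HCD left, ND right) over the median of the 8 libraries, for the 10 class I genes, related genes and summed marker lists (rows). The ND 2 column is low for the class I genes, Psmb10, Irf1 and the leukocyte lists, near 0 for Psmb5, Psmb6, Psmb7 and melanocyte markers, and high for muscle markers.

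Outside the 10, the genes whose log2 CPM followed the mean of the class I genes most closely were Gbp10, 9330175E14Rik, Igtp, Gbp5 and Bst2. Pearson's r over the 8 libraries was 0.997 for Gbp10, 0.996 for 9330175E14Rik, 0.996 for Igtp, 0.995 for Gbp5 and 0.995 for Bst2. Without ND 2, over 7 libraries, r was 0.95 for Gbp10, 0.955 for 9330175E14Rik, 0.923 for Igtp, 0.921 for Gbp5 and 0.911 for Bst2. All 5 were lowest in ND 2, highest in ND 1 and, among the other 7 libraries, lowest in HCD 4. These values describe the choice of the genes, and all of them share the same 8 libraries. 9330175E14Rik lies on the strand opposite to Nlrc5 and shares 78 exon bases with it.

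Per length, as mean FPKM over the 8 libraries, B2m came first at 1663, followed by H2-D1 at 328, Tapbp at 50.1, H2-K1 at 48.5 and Psmb8 at 45.8. H2-T23 followed at 13.5, Tap1 at 12.3, Tap2 at 8.05, Psmb9 at 6.56 and Nlrc5 at 3.04. B2m was above H2-D1 and H2-D1 above Tapbp in all 8 libraries, whereas Tapbp and H2-K1 each led in 4. H2-K1 led Psmb8 in 5, H2-T23 led Tap1 in 6 and Tap2 led Psmb9 in 7, so these neighbours did not keep 1 order. The gene length behind the FPKM of H2-K1 was 7271 bases, against 2938 bases of merged exons and a gene of 4331 bases from end to end. With CPM per kb of merged exons, a scale added after the data had been seen, H2-K1 stood at 120 and Tapbp at 65.0, and H2-K1 led in all 8 libraries. The pair Tap2 and Psmb9 then stood at 11.4 and 11.3, each ahead in 4 libraries.

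**Figure D5:**
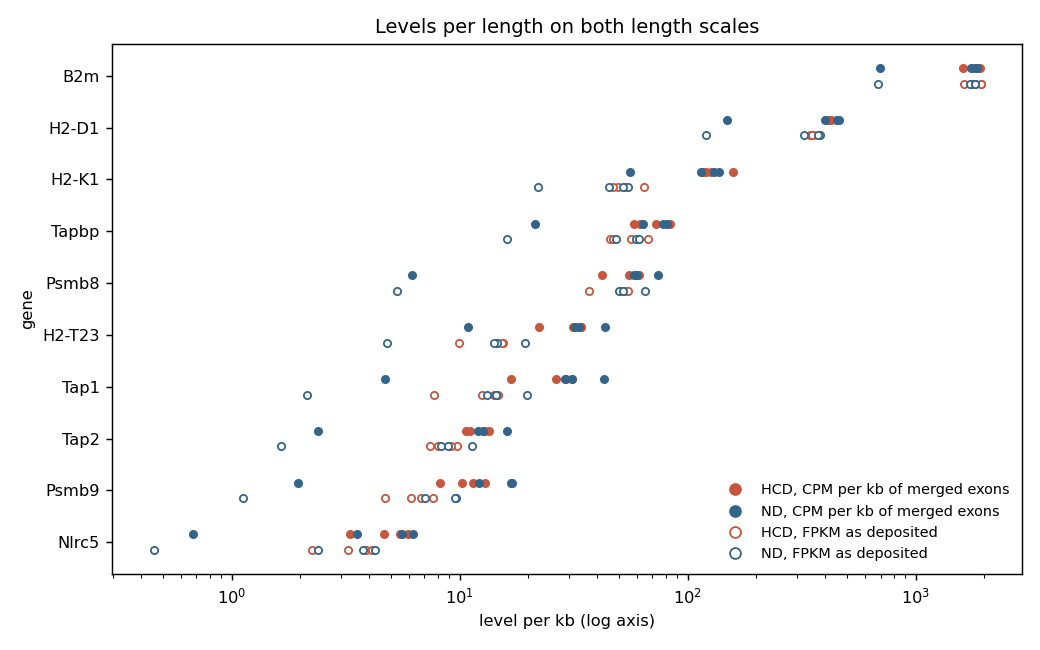
Level per kb of each class I gene in each library (log x axis), as CPM per kb of merged exons (filled points) and as deposited FPKM (open points), HCD in red and ND in blue. B2m and H2-D1 lead on both scales, H2-K1 changes place with Tapbp between them, and the leftmost point of every row is ND 2.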

How the data were processed

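Paired-end TruSeq libraries were made from column-purified total RNA, per the labels' protocols. Per the submitters' processing notes, CASAVA 1.8, TopHat2 2.0.9, HTSeq, edgeR and the build mm10 were used, with no role given. The annotation and the strand setting are not given in the sources used. Each library holds whole-number counts per Ensembl gene, deposited without normalization, and FPKM, per the file headers. The deposited FPKM divide each count by a gene length and the library total. That length was within 1% of the summed distinct exons for 72.3% of genes and of the merged exons for 25.9%, so overlapping exons were counted more than once in many.

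The counts of all 8 libraries were tested in R 4.3.3 with the quasi-likelihood F-test of edgeR 4.0.16 (with limma 3.58.1), fitting diet alone, with TMM factors, a minimum count of 10 and a minimum total of 15, Benjamini-Hochberg adjustment over 13186 genes and a threshold of 0.05. At least 99.88% of the counts in any library fell on tested genes. Ratios were compared by exact permutation. Names and coordinates are from GENCODE M21 (34344 genes matched), promoters from RefSeq (8 of 10 genes).

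The members and lists were chosen with earlier results of these data known. Named are the 10 members, genes of the 5 ratios, a set fixed by name, up to 3 genes of each list by smallest p, and the 5 most alike, 68 in all, not all printed. H2-T22, Mr1, Calr and Erap1 lie outside that rule and were chosen after their values were seen, as were Klrb1c, Clec9a, Cd3d, Cd4, Cd8b1, Ncr1 and Cd68. Single-gene results of 2 genes are not reported here. Of 149 listed symbols 1 matched no gene. Within a group, pairs of libraries differed by a chi-square per degree of freedom of 14.5 to 37.6, where sampling noise alone gives about 1. On simulated counts of 13030 genes for this comparison, the fit called 31.3% of 1.5-fold, 73.4% of 2-fold and 95.3% of 4-fold changes, with 12 false calls. The changed genes were picked at random and no simulated library was set apart as ND 2 was, so these are not rates for the class I genes. Alternatives were other scalings, no filter, DESeq2 1.42.0, limma-voom, a replicate block, a term for ND 2, ND 3 and ND 4, and leaving out each library.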

Additional observations from a re-analysis of the deposited data

Results flagged for a closer look

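A library was marked where the gap between it and the nearest of its group, as a share of the group's whole range, passed Dixon's critical value of 0.829 for 4 samples. This happened for 13 of 146 groups of values, and chance marks about 1 in 20. ND 2 was set apart in 3 of them: below the other ND tumours for B2m (596.8 CPM, gap 0.902 of the range), for Bst2 (119.0 CPM, gap 0.869) and for the ratio of Psmb8 to Psmb5 (0.0665, gap 0.844). For the other 9 members ND 2 was also lowest, but the remaining 3 ND tumours were too spread for the gap to pass.

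The others were HCD tumours. HCD 4 stood below for Ptprc (10.4 CPM, gap 0.964), Col1a2 (18.5 CPM, gap 0.876) and Pdgfra (0.511 CPM, gap 0.861). HCD 3 stood apart for Sox10 (868.8 CPM, gap 0.845), C1qc (95.2 CPM, gap 0.918), Acta1 (1.33 CPM, gap 0.91) and Myh4 (0.692 CPM, gap 0.912). HCD 2 stood below for Rfxank (14.2 CPM, gap 0.937). HCD 1 stood apart for Nfya (31.2 CPM, gap 0.87) and Itgax (10.5 CPM, gap 0.836).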

How the results depend on the processing

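None of the 150 fits of a member under 15 alternatives passed the threshold, and 26 turned its sign. Leaving out 1 library each, log2 fold changes ran from -0.02 to 0.33 for B2m, -0.05 to 0.35 for H2-D1, 0.04 to 0.38 for H2-K1, -0.26 to 0.25 for H2-T23, -0.08 to 0.57 for Nlrc5, -0.23 to 0.40 for Psmb8, -0.51 to 0.05 for Psmb9, -0.41 to 0.26 for Tap1, -0.18 to 0.41 for Tap2 and -0.11 to 0.35 for Tapbp. A term for ND 2, ND 3 and ND 4 leaves ND 1 alone for the normal diet. Its values set the HCD tumours against ND 1, the highest library for 6 of the 10 genes. With it, H2-K1 was at -0.07, H2-D1 -0.12, H2-T23 -0.52, Tap2 -0.43, Tapbp -0.17, Psmb8 -0.45 and Nlrc5 -0.36. Tap1 was at -0.73, Psmb9 at -0.64 and B2m at 0.04. Limma-voom gave 0.29 for Tap1 and 0.22 for Psmb9, and the replicate block 0.20 for Tap1 and 0.09 for Psmb9. Without 1 library, log2 differences of the ratios ran from -0.15 to 0.92 for Psmb8 over Psmb5, -0.35 to 0.70 for Psmb9 over Psmb6, -0.20 to 0.41 for Psmb10 over Psmb7, -0.07 to 0.03 for the B2m ratio and -0.25 to -0.02 for Tap1 over Tap2.

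Over all genes, 24 were called, 93 with no filter, 437 with DESeq2, 5 with the term for ND 2, ND 3 and ND 4, and 0 with the replicate block (1634 at an unadjusted p under 0.05). Leaving out 1 library gave 0 to 12 calls (1516 to 1877 at an unadjusted p under 0.05). The cause was not tested. Same-numbered libraries did not deviate together (correlations 0.0249, -0.0113, -0.0676 and 0.107). With few libraries and ND 2 far apart, these values cannot tell whether the numbers mark a pairing. Without ND 2, 4 of 9 other heavy chains tested were higher in HCD, against 8 of 9 with all libraries. Of the T and NK cell markers tested, 4 of 9 were higher, against 6 of 8. Fibroblast markers went from 6 of 6 to 7 of 7. Both lists held more tested genes without ND 2, Cd4 among them, so these counts compare unlike sets. The counts of dendritic cell, endothelial and muscle markers did not change.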
